A study of Mus musculus with 12 samples.

Results

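The HOX cluster genes are the genes whose mouse symbol begins with Hoxa, Hoxb, Hoxc or Hoxd followed by a paralog number. This rule on the symbol found 39 genes among the 55385 gene identifiers of the count and TPM tables. They comprised 11 genes of the HoxA cluster, 10 of HoxB, 9 of HoxC and 9 of HoxD, in 13 paralog groups. CPM values (counts scaled to library size with TMM factors) compare 1 gene between libraries, and TPM values, which are also scaled by transcript length, compare genes with each other.

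RNA was sequenced in 12 libraries of C57BL/6 mouse cells, in 3 groups of 4. The first group, coded B6 in the sample titles, was a primary culture of endometrial cells from normal mice and is called normal below. The other 2 groups were the endometrial cancer cell lines mECC (coded DM) and HPmECC (coded WT). According to the series' design text, some cancer lines overexpressed Myc, but the labels name neither the line that carried it nor the promoter that drove it. The labels give no animal age, no number of animals behind the primary culture, and no statement on whether a line was 1 clone. Whether replicate libraries are independent cultures is not labelled, so p-values below reflect library-to-library spread that may be technical only.

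HOX genes encode homeodomain transcription factors that give cells a position along the head-to-tail axis. Within a cluster they lie in order of their paralog number, and low-numbered genes are used further toward the head than high-numbered ones. In the female reproductive tract, which forms from the Müllerian duct, paralogs 9 to 13 are known for marking successive segments from oviduct to vagina, with Hoxa10 and Hoxa11 used in the uterus. HOX proteins bind DNA together with TALE cofactors (the PBX, MEIS and PKNOX proteins). Retinoic acid is known for inducing the low-numbered end of the clusters, MLL and menin for keeping active HOX genes on, and polycomb complexes for keeping silent ones off.

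On mouse genome build GRCm38 the HoxB members spanned chr11:96194316-96368256, the HoxC members chr15:102921103-103036852 and the HoxD members chr2:74668310-74765142. All 39 were annotated as protein-coding genes in GENCODE. Of these, 23 overlapped another annotated gene, 14 of them on the opposite strand and 15 on the same strand. The annotated Hoxa3 model runs over Hoxa4, Hoxa5 and Hoxa6, and the Hoxc5 model over Hoxc6, Hoxc8, Hoxc9 and part of Hoxc10. The Hoxd3 and Hoxd4 models overlap each other, and the transcript model Gm28309 overlaps Hoxd10 and Hoxd11. No strand setting is given in the sources used here, and reads of overlapping models are divided by estimation. Overlap was taken between whole gene spans, and shared exons were not looked for. Values of these 23 members may therefore be uncertain as to which transcript they come from.

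Start-site sequences from RefSeq on GRCm38.p6 were matched to 22 of the 39 members (24 windows, since Hoxa10 and Hoxd11 each had another start). Of these windows 10 were of HoxA, 3 of HoxB, 1 of HoxC and 10 of HoxD, so what follows describes mainly HoxA and HoxD. The 5 windows below are shown because their genes took different courses in the lines: Hoxa5 and Hoxb8 rose, Hoxd8 stayed measurable in both lines, and Hoxd10 and Hoxd11 were at 0 to 2 summed counts there. Each is the 250 bases before the start, written 5′ to 3′ on the gene's strand, with every CpG dinucleotide in capitals. None of the 5 touched an exon of the GENCODE annotation. They lie at chr6:52204588-52204837 (Hoxa5, minus strand), chr11:96281655-96281904 (Hoxb8, plus strand), chr2:74704365-74704614 (Hoxd8, plus strand), chr2:74691641-74691890 (Hoxd10, plus strand) and chr2:74682073-74682322 (the downstream start of Hoxd11, plus strand).
Hoxa5: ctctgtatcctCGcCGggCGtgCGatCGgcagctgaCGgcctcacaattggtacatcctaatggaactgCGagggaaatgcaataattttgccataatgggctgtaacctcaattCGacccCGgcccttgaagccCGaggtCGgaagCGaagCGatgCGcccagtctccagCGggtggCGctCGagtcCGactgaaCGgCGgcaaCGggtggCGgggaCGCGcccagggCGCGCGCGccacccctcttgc
Hoxb8: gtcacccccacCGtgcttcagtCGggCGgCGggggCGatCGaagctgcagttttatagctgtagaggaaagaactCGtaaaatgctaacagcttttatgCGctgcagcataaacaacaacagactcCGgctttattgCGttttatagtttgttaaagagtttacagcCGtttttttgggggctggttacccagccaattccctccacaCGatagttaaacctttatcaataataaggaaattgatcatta
Hoxd8: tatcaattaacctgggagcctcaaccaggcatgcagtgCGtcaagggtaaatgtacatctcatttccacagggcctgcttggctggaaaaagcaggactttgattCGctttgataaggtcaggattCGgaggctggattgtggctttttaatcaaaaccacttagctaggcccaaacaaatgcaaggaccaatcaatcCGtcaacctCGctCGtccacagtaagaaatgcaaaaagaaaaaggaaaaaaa
Hoxd10: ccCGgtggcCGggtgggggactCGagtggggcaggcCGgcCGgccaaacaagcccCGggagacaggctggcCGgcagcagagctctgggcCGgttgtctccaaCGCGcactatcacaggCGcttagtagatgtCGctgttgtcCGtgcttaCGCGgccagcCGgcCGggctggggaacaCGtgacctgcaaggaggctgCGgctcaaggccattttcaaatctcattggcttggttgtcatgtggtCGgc
Hoxd11: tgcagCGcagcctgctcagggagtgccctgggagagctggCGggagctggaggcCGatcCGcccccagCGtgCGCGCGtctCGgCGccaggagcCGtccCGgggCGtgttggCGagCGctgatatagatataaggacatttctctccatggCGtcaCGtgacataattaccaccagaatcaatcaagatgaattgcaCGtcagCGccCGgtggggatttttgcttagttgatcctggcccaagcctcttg

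The Hoxa5 window held 28 CpG dinucleotides, those of Hoxd10 and Hoxd11 held 20 each, that of Hoxb8 held 12 and that of Hoxd8 held 6. The 24 HOX windows held 2 to 35 CpG dinucleotides with a median of 12.5, against a median of 6 over all 32851 windows of the same table. The windows of Hoxd10 and Hoxd11 were thus above the HOX median, and that of Hoxd8 was at the general one. The E-box CACGTG, the letters that Myc is known to bind, was present on either strand in 4 of the 24 HOX windows (Hoxd1, Hoxd10, the downstream start of Hoxd11, and Hoxd13), against 6.02% of all windows. The letters TGATTNAT, known for binding HOX together with PBX, were in 2 of 24 (Hoxa2 and Hoxd11), against 2.82% of all. The retinoic acid response element searched, a direct repeat of AGGTCA with 5 bases between, was in 0 of 24, against 0.00913% of all. Both strands were searched, none of the motifs overlaps another in these letters, and a match or its absence is a description of this window alone.

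In normal cells the HOX program was broad and centred on HoxB. Summed over all 39 genes it came to 237, 236, 220 and 219 TPM in the 4 normal libraries, 542, 562, 532 and 538 TPM in mECC, and 404, 419, 419 and 428 TPM in HPmECC. The groups did not overlap, with means of 228 ± 9.86, 544 ± 13.2 and 417 ± 9.89 TPM (SD, n = 4 each). A level of at least 1 TPM was reached by 24 members in the normal group, 17 in mECC and 18 in HPmECC, whereas 4, 16 and 12 members were at 0 counts in all libraries of the group. In TPM, the lines had more HOX RNA in total, from fewer genes. Sums in TPM carry no TMM factors. Without such factors the median log2 fold change of all genes against normal was 0.221 in mECC and 0.197 in HPmECC. Differences between groups in these and the following TPM sums may include a shift of that kind.

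The cluster make-up of that sum moved toward HoxB. HoxB gave 69.8% ± 2.22 of summed HOX TPM in the normal libraries, 82.2% ± 0.833 in mECC and 85.6% ± 0.352 in HPmECC (SD, n = 4 each). HoxA gave 10.6% ± 1.45, 16.5% ± 0.87 and 13.9% ± 0.402. HoxD fell from 12.6% ± 1.28 to 1.27% ± 0.117 and 0.491% ± 0.0648 of the sum, and HoxC, at 7.02% ± 0.807 in normal cells, had no count in mECC and 1 count in HPmECC. The libraries of the 3 groups did not overlap in the shares of HoxB, HoxA or HoxD.

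**Figure D1:**
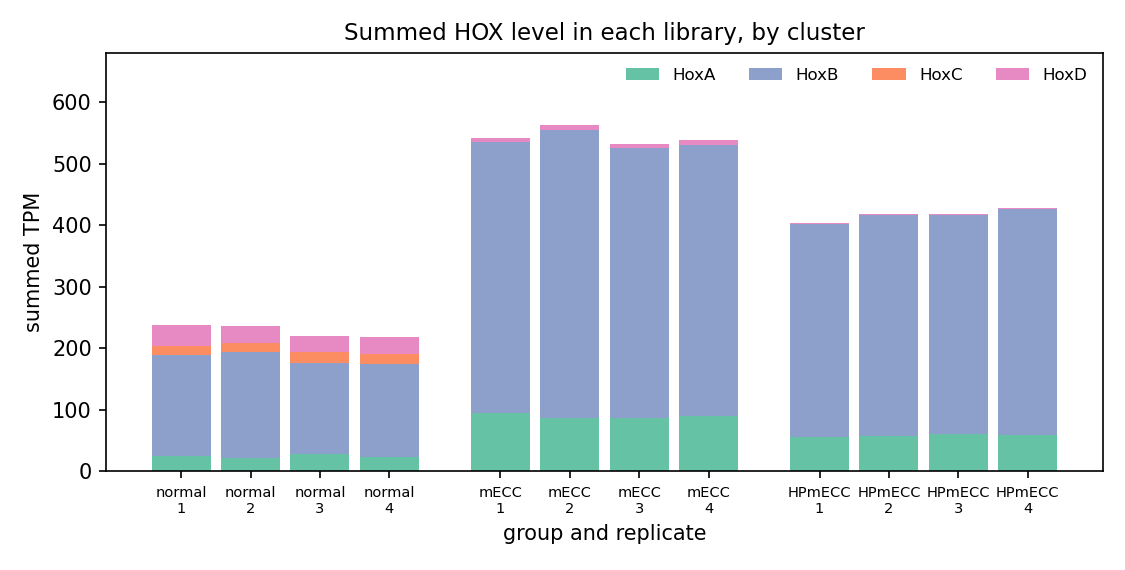
Stacked bars give the summed TPM of the HOX genes in each of the 12 libraries (replicates 1 to 4 of each group), coloured by cluster. The normal libraries sit at 219 to 237 TPM with all 4 clusters visible, and the mECC libraries (532 to 562 TPM) and HPmECC libraries (404 to 428 TPM) are made almost wholly of HoxB and HoxA.

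Summed by paralog number, HOX levels in the lines were higher for the low and middle numbers and lower for paralogs 10 to 13, though single genes went against these sums (Hoxb4, Hoxc4 and Hoxd4 fell, and Hoxb9 and Hoxb13 rose, in both lines). Paralogs 1 to 4 summed to 32.7 ± 0.341 TPM in the normal libraries, 142 ± 2.25 TPM in mECC and 102 ± 1.61 TPM in HPmECC (SD, n = 4 each). Paralogs 5 to 8 summed to 146 ± 8.95, 281 ± 12.7 and 199 ± 11.9 TPM. Paralogs 10 to 13 summed to 31.6 ± 1.35, 3.56 ± 0.673 and 3.84 ± 0.425 TPM. Every library of both lines was above every normal library in the sums of paralogs 1 to 4 and 5 to 8. In the sum of paralogs 10 to 13 every line library was below every normal library. Paralogs 9 to 13 together rose from 48.6 ± 1.84 to 121 ± 1.96 and 117 ± 4.01 TPM, but without Hoxb9 that sum fell from 40.9 ± 1.57 to 6.88 ± 0.419 and 5.55 ± 0.976 TPM.

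**Figure D2:**
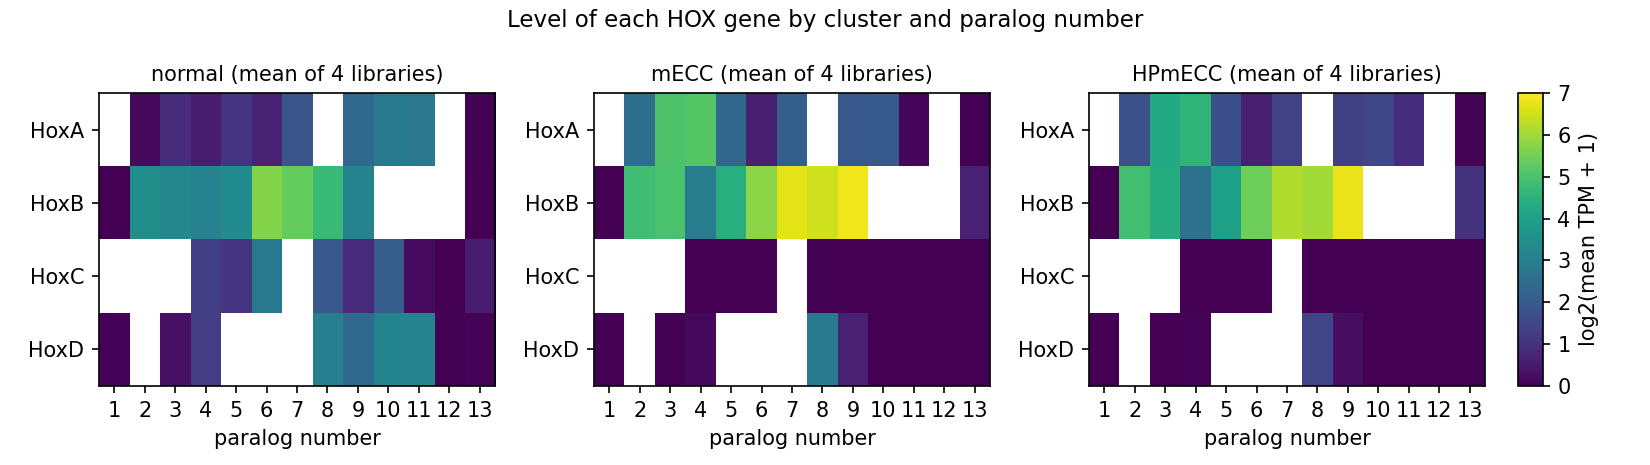
Each panel shows 1 group, with paralog number across and cluster down, and the colour gives log2(mean TPM + 1) over 4 libraries (white where no value is shown). The HoxC row and the right end of HoxA and HoxD are darker in both lines than in normal cells, while Hoxa3, Hoxa4, Hoxb7, Hoxb8 and Hoxb9 are brighter in the lines.

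The filter on low counts left 30 of the 39 members for testing among 15283 genes. In mECC against normal, 12 members were higher, 16 lower and 2 not called (edgeR's quasi-likelihood test, Benjamini-Hochberg adjusted p under 0.05 over all genes). The background was 86.3% of all genes called, 42.1% higher and 44.2% lower, so being called says little about a HOX gene here. In HPmECC against normal, 12 members were higher and 18 lower, beside 86.4% of all genes called, 43.0% higher and 43.3% lower. With a minimum of 2-fold, 10 members were higher and 13 lower in mECC (background 41.2%), and 8 were higher and 15 lower in HPmECC (background 41.5%). The median log2 fold change of the 30 tested members was -0.38 in mECC and -1.38 in HPmECC, against -0.02 and 0.00 over all genes. It was the same with members at 0 counts set at their bound, since these stayed on the same side of it. In each comparison the median takes in 11 members above the filter's level in normal cells but not in the line, all of them lower. It therefore lends no support to a fall of the set. The libraries of the 2 groups did not overlap for 28 tested members in mECC (82.3% of all genes) and for all 30 in HPmECC (81.7% of all genes).

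Part of these counts was fixed by the filter. Above 0.446 CPM in every library of both groups were 16 members in mECC against normal, of which 9 were higher, 5 lower and 2 not called. Of the other 14, 11 were above it in every library of normal cells but not of mECC, Hoxa2 and Hoxa4 in mECC but not in normal cells, and Hoxb13 in neither of these groups. A member that is above the level in only 1 of the groups compared is bound to look different, so these 13 lend no support to the counts. In HPmECC against normal, 16 members were above that level in every library of both groups, of which 9 were higher and 7 lower. The rest were 11 above it in every library of normal cells but not of HPmECC, all lower, and 3 the other way round. These 3, Hoxa2, Hoxa4 and Hoxb13, were all higher. The members above the level in only 1 group lend no support to the counts here either. The 2 comparisons share the normal libraries, so each is described by its own values below.

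Scaling by library totals without TMM factors moved the median log2 fold change of all genes to 0.221 in mECC and 0.197 in HPmECC against normal. The split of called genes in mECC against normal was then 7866 higher and 5453 lower, in place of 6436 higher and 6748 lower. Members with small changes, named below, move with that shift.

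HoxA divided at the middle of the cluster. Its low-numbered genes Hoxa2 to Hoxa5 rose in both lines and its high-numbered genes Hoxa9 to Hoxa11 fell in both. Hoxa3, known for patterning the pharyngeal arches and neck, had 0.745, 0.519, 0.716 and 0.780 CPM in the normal libraries, 27.2, 29.3, 28.7 and 30.2 CPM in mECC, and 20, 20.1, 21.1 and 21.7 CPM in HPmECC. Every line library was above every normal one, with log2 fold changes of 5.37 ± 0.10 (SE, adjusted p = 1.19e-19) in mECC and 4.90 ± 0.10 (adjusted p = 9.96e-19) in HPmECC. Hoxa4 had 0.609, 0.312, 0.220 and 0.643 CPM in normal cells, 30.3, 28, 28.1 and 27.7 CPM in mECC, and 18.4, 19.1, 22.9 and 19.3 CPM in HPmECC. Its groups did not overlap, and its log2 fold changes were 5.98 ± 0.15 (adjusted p = 1.04e-17) and 5.46 ± 0.16 (adjusted p = 1.04e-16). The gene spans of Hoxa3 and Hoxa4 overlap, so the share of each in this joint rise may be uncertain.

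Hoxa2, known for giving the second pharyngeal arch its identity, rose from 10 counts summed over the normal libraries to 476 in mECC and 225 in HPmECC, with log2 fold changes of 5.05 ± 0.26 and 4.03 ± 0.29. Hoxa5, known for its part in lung and neck-to-trunk patterning, rose by 1.59 ± 0.19 on the log2 scale in mECC and by 0.89 ± 0.20 in HPmECC.

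Hoxa7 stood at the turning point of the cluster. It had 2.98, 3.06, 3.42 and 3.44 CPM in normal cells, 3.04, 3.45, 3.66 and 3.45 CPM in mECC, and 1.49, 1.86, 1.42 and 1.92 CPM in HPmECC. The mECC libraries overlapped the normal ones, and the HPmECC libraries were all lower. It was not called in mECC (log2 fold change 0.07 ± 0.13, adjusted p = 0.611), where scaling by library totals gave 0.31 with an adjusted p of 0.035, and it fell by 0.94 ± 0.15 on the log2 scale in HPmECC (adjusted p = 8.48e-06). Hoxa6, beside it, did not pass the filter and summed to 20 counts over the normal libraries, 21 in mECC and 22 in HPmECC.

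Hoxa10, known for uterine identity and receptivity to the embryo, had 6.03, 6.13, 8.37 and 6.34 CPM in normal cells, 2.52, 2.87, 2.07 and 2.26 CPM in mECC, and 1.49, 1.68, 1.89 and 1.73 CPM in HPmECC. All line libraries were below all normal ones, and Hoxa10 fell by 1.47 ± 0.14 on the log2 scale in mECC (adjusted p = 1.31e-08) and by 1.99 ± 0.15 in HPmECC (adjusted p = 3.48e-10). Hoxa11, a gene of the uterus and stroma, had 9.14, 7.90, 8.65 and 8.63 CPM in normal cells, 0.299, 0.0363, 0 and 0.0851 CPM in mECC, and 1.53, 1.07, 0.735 and 1.14 CPM in HPmECC. It was near 0 in mECC and low in HPmECC, and Hoxa11 fell by 6.37 ± 0.32 on the log2 scale in mECC (adjusted p = 7.65e-13) and fell by 2.91 ± 0.22 in HPmECC (adjusted p = 2.54e-10). Hoxa9, known as a marker of the oviduct end of the tract, fell by 0.82 ± 0.17 and 1.81 ± 0.19 on the log2 scale. Hoxa13, of the limb and the tail end of the tract, had 3, 0 and 3 summed counts and was not tested.

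**Figure D3:**
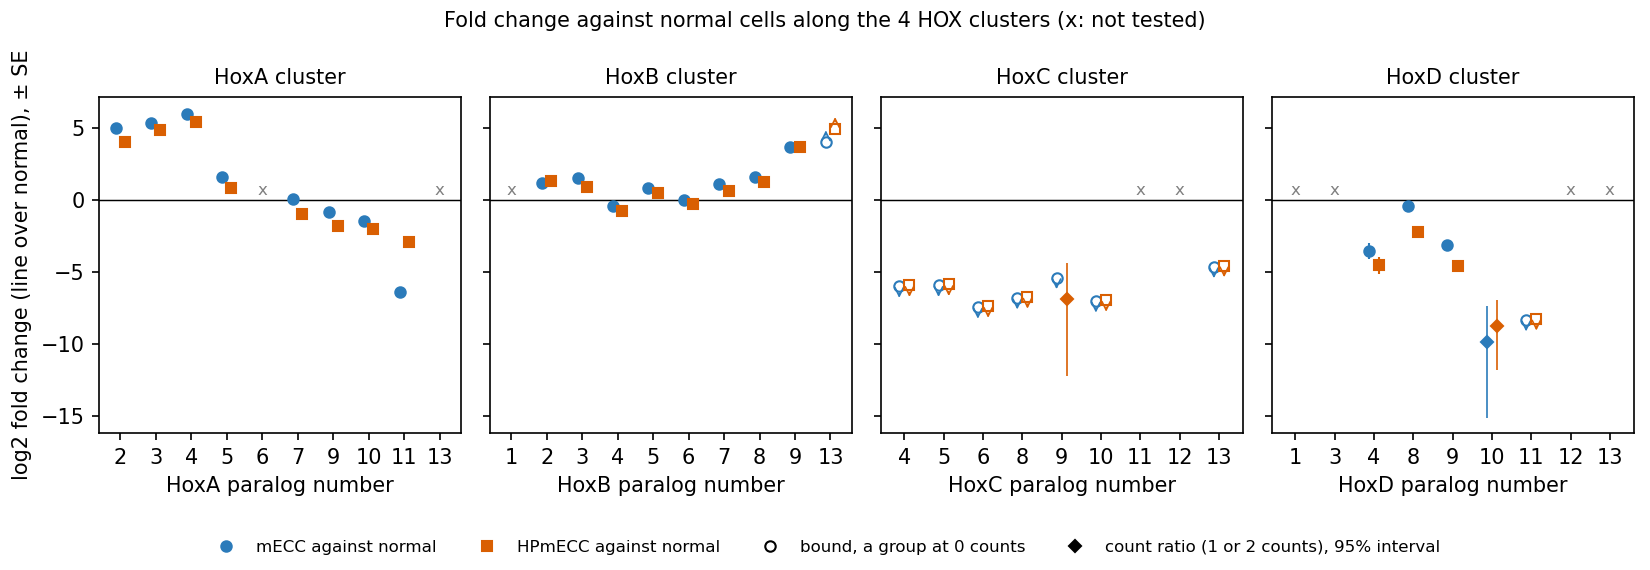
Log2 fold changes of mECC (circles) and HPmECC (squares) over normal cells are plotted by paralog number in each cluster, with SE bars. Open symbols with arrows are bounds from a floor of 3 counts where a group had none, diamonds are count ratios with 95% intervals where a line had 1 or 2 counts, and x marks members not tested (1 HoxA member is not drawn). HoxA runs from 5.37 (mECC) and 4.9 (HPmECC) at Hoxa3 to below -2 at Hoxa11, Hoxb9 stands at 3.69 and 3.72, and HoxC and HoxD lie below 0.

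HoxB stayed on from Hoxb2 to Hoxb9 in all groups and its order of levels changed at the top. Hoxb6, Hoxb7 and Hoxb8, genes of the trunk, were the 3 highest HOX genes in normal cells at 51.0 ± 3.63, 39.7 ± 1.84 and 25.2 ± 3.79 TPM. Neither pair of neighbours in that order overlapped between libraries. In mECC the order was Hoxb9 (114 ± 1.63 TPM), Hoxb7 (104 ± 3.19), Hoxb8 (89.1 ± 6.29) and Hoxb6 (53.8 ± 3.70), again without overlap between neighbours. In HPmECC Hoxb9 was first at 111 ± 3.46 TPM, and Hoxb7 (70.6 ± 4.29 TPM) and Hoxb8 (64.9 ± 4.92 TPM) overlapped behind it. Below the top 3 in normal cells came Hoxb2, Hoxb5, Hoxb3, Hoxd10, Hoxd11, Hoxb9, Hoxb4, Hoxd8, Hoxa10, Hoxc6 and Hoxa11, at 9.96 down to 5.89 TPM, and each of these overlapped its neighbours in that order.

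Hoxb9 (ENSMUSG00000020875), a thoracic and mammary patterning gene, moved from the ninth place in normal cells to the first in both lines. It had 13.5, 13.9, 11.8 and 10.5 CPM in normal cells, 162, 157, 160 and 158 CPM in mECC, and 161, 160, 170 and 159 CPM in HPmECC. The lines overlapped each other and were all far above the normal libraries, with rises of 12.9-fold (log2 fold change 3.69 ± 0.05, adjusted p = 4.52e-21) and 13.1-fold (3.72 ± 0.05, adjusted p = 3.56e-21). By itself it gave 3.36% ± 0.326 of summed HOX TPM in the normal libraries, 21% ± 0.597 in mECC and 26.6% ± 1.07 in HPmECC (SD, n = 4 each).

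Hoxb13, which lies apart from the rest of its cluster and is known from prostate and tail-end tissues, had 0 counts in the normal libraries. It had 0.257, 0.981, 0.761 and 0.638 CPM in mECC (69 summed counts) and 1.41, 1.43, 1.57 and 0.810 CPM in HPmECC (125 summed counts). Set against the floor of 3 counts over the 4 normal libraries, it was at least 16.7-fold higher in mECC and at least 31.6-fold higher in HPmECC. At 0.560 ± 0.259 and 1.05 ± 0.275 TPM it stayed a low transcript in both lines.

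Hoxb8 had 24.6, 29.0, 21.9 and 23.2 CPM in normal cells, 72.4, 78.6, 72.2 and 75.3 CPM in mECC, and 56.6, 59.7, 56.2 and 60 CPM in HPmECC. Hoxb7, which is often raised in carcinomas, had 30.0, 32.3, 29.3 and 29.7 CPM in normal cells, 66.9, 69.0, 64.6 and 66.5 CPM in mECC, and 44.8, 48.4, 45.6 and 50.8 CPM in HPmECC. Both were ordered normal, HPmECC, mECC without overlap. The log2 fold changes were 1.59 ± 0.06 and 1.24 ± 0.06 for Hoxb8 and 1.14 ± 0.05 and 0.65 ± 0.05 for Hoxb7, in mECC and HPmECC.

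Hoxb3 and Hoxb2, genes of the hindbrain, rose as well. Hoxb3 had 16.9, 17.9, 13.9 and 18.0 CPM in normal cells, 50.3, 52.5, 47.3 and 50.5 CPM in mECC, and 32.3, 31.1, 33.4 and 31.3 CPM in HPmECC. Hoxb2 had 10.4, 11.7, 9.92 and 10.3 CPM in normal cells, 22.7, 25.8, 25.9 and 24.9 CPM in mECC, and 28.2, 27.1, 25.1 and 25.3 CPM in HPmECC. The line libraries of both genes were above the normal ones, by 1.58 ± 0.06 and 0.93 ± 0.06 on the log2 scale for Hoxb3 and by 1.23 ± 0.07 and 1.32 ± 0.07 for Hoxb2. Hoxb5, a gene of the trunk and gut, had 13.3, 11.2, 9.70 and 11.6 CPM in normal cells, 20.8, 20.4, 20.1 and 22.4 CPM in mECC, and 15.7, 16.7, 14.6 and 16.3 CPM in HPmECC. It rose without overlap by 0.87 ± 0.08 and 0.48 ± 0.08 on the log2 scale.

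Hoxb4 and Hoxb6 did not follow their neighbours. Hoxb4, known from blood stem cells, had 12.4, 13.3, 12.9 and 12.1 CPM in normal cells, 8.98, 9.74, 10.5 and 9.11 CPM in mECC, and 8.10, 7.11, 8.34 and 7.29 CPM in HPmECC. All line libraries were lower. It fell by 0.72 ± 0.08 on the log2 scale in HPmECC and by 0.40 ± 0.08 in mECC (adjusted p = 7.98e-05), where scaling by library totals gave -0.16 with an adjusted p of 0.0588. Hoxb6 had 47.6, 48.3, 43.5 and 43.0 CPM in normal cells, 44.2, 48.7, 45.3 and 44.2 CPM in mECC, and 34.5, 39.0, 37.1 and 38.2 CPM in HPmECC. The normal and mECC libraries overlapped, and those of HPmECC were lower. Its log2 fold change in mECC was 0.00 ± 0.05 (adjusted p = 0.939), or 0.24 (adjusted p = 0.000152) with library totals, and in HPmECC it fell by 0.29 ± 0.05 (adjusted p = 3.29e-05), or -0.09 (adjusted p = 0.0942) with library totals. Hoxb1, the hindbrain gene at the low end of the cluster, had 0 counts in all 12 libraries.

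**Figure D4:**
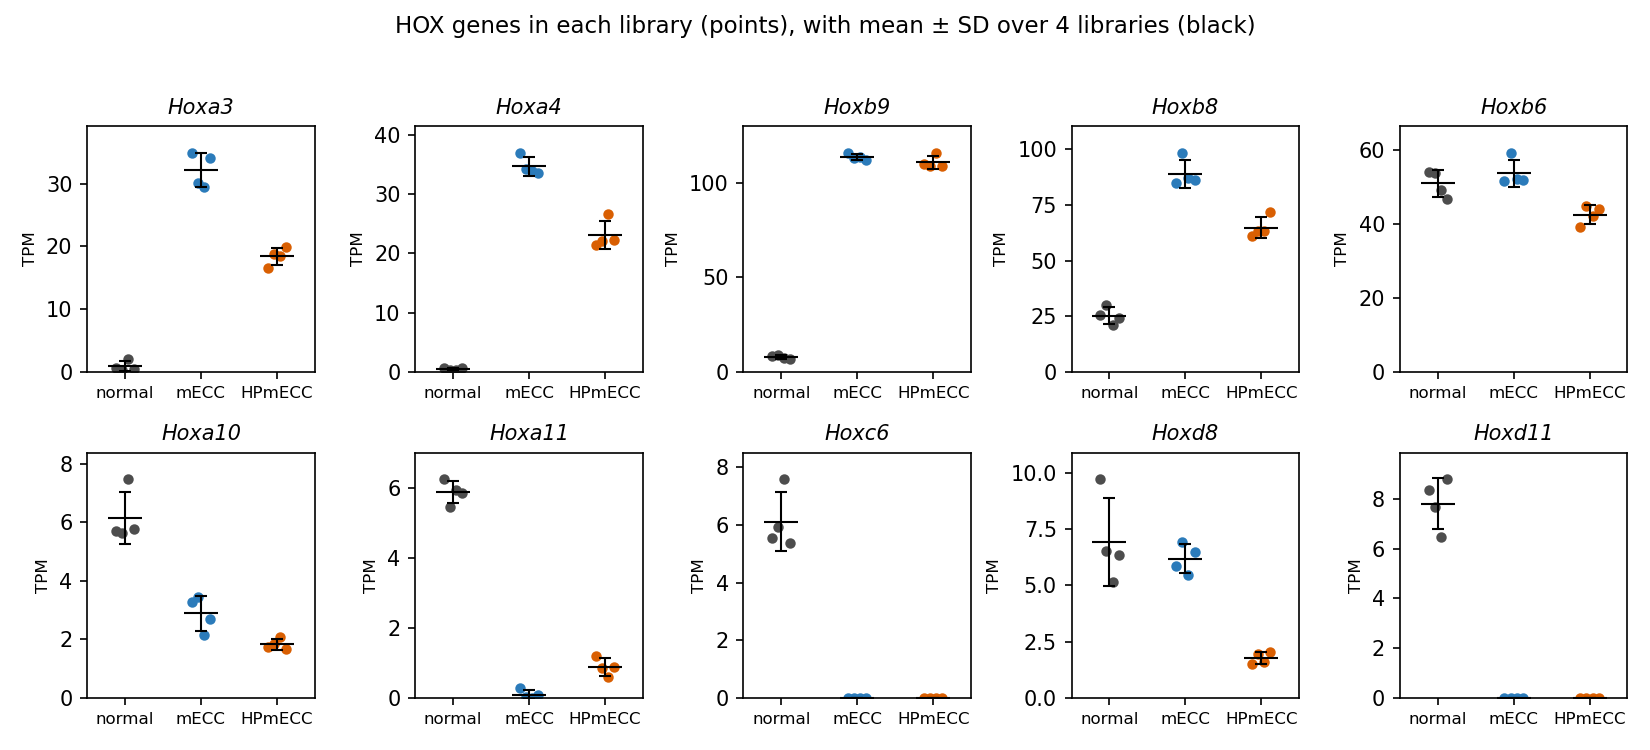
Points give the TPM of 10 HOX genes in each library of the 3 groups, and black marks give the mean ± SD over 4 libraries (vertical axes start at 0 and differ between genes). Hoxa3, Hoxa4, Hoxb8 and Hoxb9 are higher in both lines, Hoxa10, Hoxa11, Hoxc6 and Hoxd11 are lower in both, and Hoxd8 is far lower in HPmECC than in the other 2 groups.

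HoxC was expressed at a low level in normal cells and was almost wholly without reads in the lines. Its 9 genes had 1318 counts summed over the normal libraries, 0 counts of 95554927 in mECC and 1 count of 94340714 in HPmECC. A count of 0 allows up to 3 counts for the whole cluster over the 4 mECC libraries. Hoxc6, a thoracic gene and the highest of the cluster in normal cells, had 4.67, 4.99, 6.12 and 4.50 CPM there and 0 in every line library, so it was at least 172-fold lower in mECC and at least 165-fold lower in HPmECC. Hoxc10, of the hindlimb and lower trunk, was at 3.78 ± 0.310 CPM in normal cells, and Hoxc8, of the lower thorax, at 3.21 ± 0.611 CPM. Both were at 0 in all line libraries and at least 128-fold and at least 110-fold lower in mECC.

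The remaining tested HoxC genes gave the same picture at lower depth. Hoxc4 (1.87 ± 0.269 CPM), Hoxc5 (1.79 ± 0.306), Hoxc9 (1.23 ± 0.13) and Hoxc13 (0.716 ± 0.13), the last known from hair and nail, were at 0 in mECC, where they were at least 63.0-fold, 60.2-fold, 41.4-fold and 24.4-fold lower. In HPmECC the single HoxC count was of Hoxc9, in replicate 1, a ratio of 119 to normal cells with a 95% counting interval of 20.8 to 4745. Hoxc11 had 14 summed counts in normal cells and 0 in both lines, and Hoxc12 had 0 in all groups.

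The genes on either side of HoxC were expressed in all groups. Within 250 kb, the tested neighbours were Atp5g2 and Calcoco1 before the cluster and Smug1, Cbx5, Hnrnpa1 and Copz1 after it. Calcoco1, 198925 bases away, was at 46.8 ± 1.08 CPM in the normal libraries, 71.5 ± 4.95 in mECC and 64.2 ± 2.51 in HPmECC. Smug1, a DNA repair glycosylase 116438 bases away, was at 24.7 ± 1.31, 16.8 ± 1.75 and 16.3 ± 0.735 CPM. Cbx5, which encodes the heterochromatin protein HP1 alpha, was at 182 ± 3.78, 341 ± 4.93 and 370 ± 11.4 CPM. The stretch almost without reads thus ended before these neighbours on both sides.

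**Figure D5:**
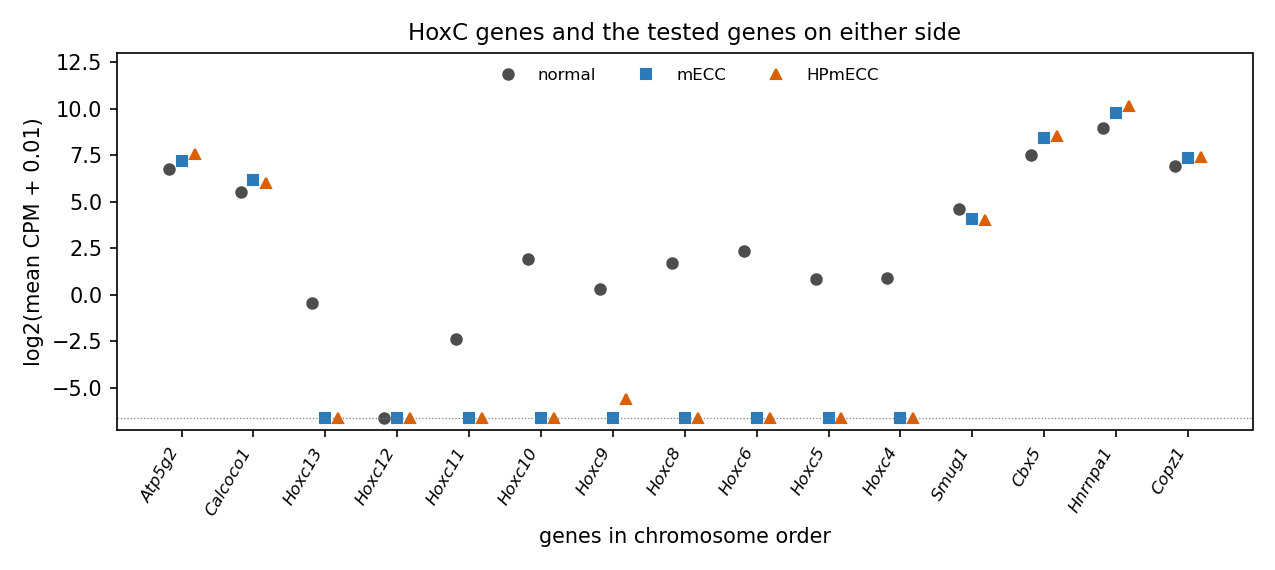
Symbols give log2(mean CPM + 0.01) over 4 libraries for the HoxC genes and the tested genes within 250 kb on either side, in chromosome order, and the dotted line marks 0 CPM. In both lines the HoxC genes lie on the dotted line, apart from Hoxc9 in HPmECC with 1 count, while all 6 neighbours stay above 15 CPM.

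The tested HoxD genes were lower in both lines, Hoxd10 and Hoxd11 the most and Hoxd8 the least. Hoxd11, a gene of the distal limb and the uterine part of the tract, had 9.89, 9.45, 8.26 and 9.73 CPM in normal cells and 0 in every library of both lines. It was at least 317-fold lower in mECC and at least 304-fold lower in HPmECC. Hoxd10 had 10, 8.31, 8.54 and 9 CPM in normal cells (659 summed counts), with 1 count in mECC and 2 in HPmECC. The ratios of normal cells to the lines were 909 (95% counting interval 163 to 35954) and 435 (120 to 3600). The overlapping transcript model Gm28309 likewise had 295 counts in normal cells and 0 in both lines.

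Hoxd9 had 6.50, 5.61, 5.51 and 5.46 CPM in normal cells, 0.599, 0.509, 0.544 and 0.979 CPM in mECC, and 0.341, 0.214, 0.105 and 0.258 CPM in HPmECC. The groups did not overlap, and Hoxd9 fell by 3.14 ± 0.20 on the log2 scale in mECC (adjusted p = 3.38e-11) and by 4.58 ± 0.24 in HPmECC (adjusted p = 1.53e-12). Hoxd8 had 10.8, 8.21, 8.48 and 9.82 CPM in normal cells, 7.53, 7.45, 6.27 and 7.62 CPM in mECC, and 1.83, 1.61, 2.15 and 2.54 CPM in HPmECC. The mECC libraries lay just below the normal ones and the HPmECC libraries well below both. Hoxd8 fell by 2.19 ± 0.14 on the log2 scale in HPmECC (adjusted p = 2.14e-11) and by 0.37 ± 0.11 in mECC (adjusted p = 0.00633), where scaling by library totals gave -0.13 with an adjusted p of 0.301. Summed counts of Hoxd4 were 96 in the normal libraries, 11 in mECC and 5 in HPmECC, and it fell by 3.53 ± 0.53 on the log2 scale in mECC and fell by 4.53 ± 0.61 in HPmECC.

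Of the 4 HoxD members not tested, Hoxd3 had 19 counts over the normal libraries, 0 in mECC and 2 in HPmECC. Hoxd1 had 4, 0 and 1, Hoxd13 had 6, 0 and 0, and Hoxd12 had 0 in each group. The genes beside the cluster were expressed in all groups: Lnpk, 88875 bases before it, was at 21.2 ± 1.51, 29.8 ± 1.99 and 31.4 ± 2.33 CPM, and Mtx2, 60661 bases after it, at 53.7 ± 2.16, 58.9 ± 0.95 and 51.3 ± 1.32 CPM. Evx2, the homeobox gene next to Hoxd13, had 0 counts in all groups, as did Evx1 beside HoxA.

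Markers of several cell types also differed between normal cells and the lines, in both directions. The 8 epithelial markers summed to 8739 to 9066 CPM in the normal libraries, 1526 to 1563 in mECC and 307 to 323 in HPmECC, with none at 0. The 8 stroma and fibroblast markers summed to 2182 to 2717, 7552 to 8375 and 8680 to 9361 CPM, with Thy1 at 0 counts in mECC. Of these 8, 5 rose and 3 fell in each line (Col1a2, Dcn and Thy1 fell in both), so their sum does not stand for each gene. The 5 smooth muscle markers summed to 2276 to 2743, 51.2 to 53.6 and 186 to 247 CPM. These sums put normal cells apart from both lines in every list. The 6 leukocyte markers summed to 316 to 406, 55.6 to 60.8 and 29.0 to 32.4 CPM (Ptprc at 0 in HPmECC), the 5 endothelial ones to 109 to 122, 3.26 to 4.15 and 5.12 to 7.71 CPM (Cdh5 and Tek at 0 in HPmECC), and the 5 mesothelial ones to 444 to 486, 36.6 to 42.1 and 8.99 to 11.1 CPM. Of the mesothelial markers, Wt1 and Upk1b were at 0 in mECC and Upk3b, Upk1b and Lrrn4 in HPmECC. The 7 endometrial markers, among them Pgr, Esr1 and Pax8, summed to 738 to 768, 246 to 263 and 97.2 to 119 CPM, with none at 0. Of these 7, 3 rose and 4 fell in mECC and 1 rose and 5 fell in HPmECC against normal. Pgr, the progesterone receptor, rose from 19.3 ± 1.07 CPM to 83.8 ± 7.10 and 59.2 ± 7.55. The part of these cell types in the HOX differences was not tested, and in bulk RNA fewer cells of a type and less RNA per cell cannot be told apart.

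Between the lines, HOX genes were mostly lower in HPmECC by less than 2-fold. Of the 30 tested members, 3 were higher in HPmECC than in mECC, 15 were lower and 12 were not called, beside 68.3% of all genes called, 33.8% higher and 34.5% lower. With a minimum of 2-fold, 1 was higher (6.73% of all genes) and 4 were lower (9.4% of all genes; 16.1% in either direction), and the median log2 fold change was -0.30 against 0.00 over all genes. Above 0.446 CPM in every library of both lines were 17 members, of which 1 was higher, 14 lower and 2 not called. The 12 members not called include 10 that did not reach that level in every library of either line, 7 of which had 0 counts in both. The libraries of the lines did not overlap for 17 members (63.0% of all genes).

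The largest gain among members called between the lines was Hoxa11 in HPmECC, a log2 fold change of 3.46 ± 0.44 (adjusted p = 1.46e-06), from 111 against 10 counts. Hoxb13 was higher by 0.94 ± 0.33 (adjusted p = 0.0188) with overlapping libraries, and it was not called without mECC replicate 1 (0.69, adjusted p = 0.0526) or without HPmECC replicate 3 (0.85, adjusted p = 0.0527). The largest fall was Hoxd8, at 2.03 ± 0.405 CPM against 7.22 ± 0.635, a log2 fold change of -1.82 ± 0.14 (adjusted p = 1.10e-09). Hoxd9 was lower by -1.45 ± 0.33, Hoxa2 by -1.02 ± 0.14 and Hoxa7 by -1.01 ± 0.14 on the log2 scale. Of the lines, only HPmECC had Hoxa11 and Hoxb13 above 0.446 CPM in every library, and only mECC had Hoxd9 above it. Members above that level in only 1 line are bound to look different, so these lend no support to the counts between the lines.

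The others that were lower in HPmECC changed by less than 2-fold: Hoxa3, Hoxa4, Hoxa5, Hoxa9, Hoxa10, Hoxb3, Hoxb4, Hoxb5, Hoxb6, Hoxb7 and Hoxb8, with log2 fold changes from -0.99 (Hoxa9) to -0.29 (Hoxb6). Hoxb9 (0.03 ± 0.04, adjusted p = 0.528) and Hoxb2 (0.09 ± 0.06, adjusted p = 0.176) were not called, and their libraries overlapped between the lines. The 3 groups thus had different orders across the clusters: mECC was highest for Hoxa2 to Hoxa5 and Hoxb3, Hoxb5, Hoxb7 and Hoxb8, and normal cells for Hoxa9 to Hoxa11, Hoxb4 and all tested HoxC and HoxD members.

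Counts and TPM move apart where the transcripts used differ in length. The length implied by counts over TPM could be compared for members with at least 50 counts in each library of both groups. It was 12.5% longer for Hoxb6 in mECC and 10.6% longer in HPmECC than in normal cells, and 19.7% longer for Hoxa3 in HPmECC than in mECC, without overlap between libraries. A difference over 10% was seen in 10.5%, 11.6% and 6.15% of the 10272 genes compared. Of the 10, 8 and 11 HOX members compared in mECC against normal, HPmECC against normal and HPmECC against mECC, 1 in each exceeded it.

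The clusters also hold noncoding transcripts. Of 17 listed, 16 were in the table and 7 were tested. In mECC against normal 4 rose and 1 fell (86.3% of all genes called), and in HPmECC 4 rose and 2 fell (86.4% of all genes called), with median log2 fold changes of 2.13 and 2.64. Hoxb5os, Hoxaas2 and Hoxaas3 averaged under the filter's level of 0.446 CPM in normal cells, as did Hoxa11os in mECC. Transcripts that passed the filter only where they were high are bound to look different. These counts and medians therefore lend no support to a shift of the list. Hoxb5os, opposite Hoxb5 and Hoxb6, rose from 0.0665 ± 0.0790 CPM to 6.14 ± 1.05 and 3.42 ± 0.528. Hoxaas2 and Hoxaas3, opposite Hoxa3 and its neighbours, rose in both lines, from 8 and 7 summed counts to 118 and 102 in mECC. Hoxa11os, opposite Hoxa11, fell from 235 summed counts to 11 in mECC and 60 in HPmECC, in the same order as Hoxa11.

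Hoxd3os1 fell in HPmECC (log2 fold change -1.96, adjusted p = 0.000534) and had 42 against 37 summed counts in mECC. Hoxb3os was not called in either line. Without a strand setting, reads from any stretch that these transcripts share with the genes opposite them cannot be told apart. Haglr had 10, 1 and 1 summed counts, Hotair and Hottip had 0 in all libraries, and the host entries of the Mir10, Mir196 and Mir615 genes were listed at 0, which for short RNAs in an mRNA library is no measure of the mature miRNA. Gm53, a long noncoding RNA inside HoxB that was chosen after its values were seen, rose from 4 summed counts to 729 in mECC and 261 in HPmECC.

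The listed TALE genes were all expressed. Besides the PBX, MEIS and PKNOX cofactors they include Tgif1 and Tgif2, which are not among the HOX cofactors named above. Of 11, 8 rose and 3 fell in mECC against normal, beside 42.1% and 44.2% of all genes, and 7 rose and 3 fell in HPmECC, beside 43.0% and 43.3%, with median log2 fold changes of 0.67 and 0.60 against -0.02 and 0.00 over all genes. Tgif2, a repressor of the family, rose from 12.9 ± 1.40 CPM to 35.1 ± 2.72 in mECC and 55.5 ± 1.76 in HPmECC. Pknox2 rose from 18.2 ± 1.08 CPM to 47.7 ± 1.24 and 66 ± 1.69, and Meis2 from 18.7 ± 1.53 CPM to 49.2 ± 2.01 and 28.3 ± 1.98. Tgif1 fell from 203 ± 5.26 CPM to 68.5 ± 1.35 and 56.8 ± 1.82. Meis3 was the cofactor with the largest difference between the lines, at 4.91 ± 0.322 CPM in HPmECC against 12.1 ± 0.647 in mECC.

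Retinoic acid genes changed in both directions. Of 16 tested, 7 rose and 9 fell in mECC against normal (all genes 42.1% higher and 44.2% lower), and 6 rose and 10 fell in HPmECC (all genes 43.0% and 43.3%), with median log2 fold changes of -1.06 and -0.52. Cyp26a1, which breaks down retinoic acid, fell from 287 ± 4.57 CPM to 0.0378 ± 0.0298 in mECC and 0.202 ± 0.0879 in HPmECC, while Cyp26b1, an enzyme of the same role, rose from 1.27 ± 0.353 CPM to 4.74 ± 0.580 and 3.56 ± 0.509. The retinaldehyde dehydrogenases, which make it, fell too: Aldh1a2 from 132 ± 9.10 CPM to 14.9 ± 1.48 and 0.476 ± 0.0937, and Aldh1a1 from 18.5 ± 2.51 CPM to 0.572 ± 0.165 and 0.229 ± 0.0368. The receptor Rara rose from 16.7 ± 0.661 CPM to 77.1 ± 2.97 and 72.0 ± 5.24, and Rarg from 54.2 ± 2.06 CPM to 113 ± 0.887 and 142 ± 5.05. The receptor Rarb, at 6.49 ± 0.805 CPM in the normal libraries, rose to 12.2 ± 0.847 in mECC and fell to 5.15 ± 0.6 in HPmECC. Dhrs3, which returns retinaldehyde to retinol, rose from 2.81 ± 0.249 CPM to 53.4 ± 4.56 and 22.2 ± 2.46. Between the lines, 5 were higher and 9 lower in HPmECC, among them Stra6, the retinol transporter, at 5.64 ± 0.692 CPM against 33.7 ± 2.38, and Crabp2, a retinoic acid carrier, at 16.4 ± 1.02 CPM against 3.29 ± 0.149.

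The chromatin regulators had small median changes. Of 13 MLL and menin genes, 9 rose and 3 fell in mECC (all genes 42.1% and 44.2%) and 10 rose and 3 fell in HPmECC against normal (all genes 43.0% and 43.3%), with medians of 0.27 and 0.37 on the log2 scale. Men1, which encodes menin, was at 46.7 ± 1.75 CPM in the normal libraries, 79.8 ± 0.623 in mECC and 84.4 ± 2.10 in HPmECC, and rose in both. Kmt2a, which encodes MLL1, fell from 82.4 ± 4.70 CPM to 41.2 ± 3.78 in mECC and 60.5 ± 7.52 in HPmECC. Psip1 rose from 70.8 ± 4.34 CPM to 113 ± 3.30 and 161 ± 5.08, and Kdm6a, an H3K27 demethylase, fell from 61.1 ± 2.25 CPM to 33.2 ± 0.504 and 28.5 ± 0.378. Its relative Kdm6b rose from 50.3 ± 2.71 CPM to 103 ± 4.11 in HPmECC.

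Of 17 polycomb genes, 9 rose and 5 fell in mECC and 10 rose and 5 fell in HPmECC against normal, close to the 86.3% and 86.4% of all genes called, with medians of 0.20 and 0.33 on the log2 scale. Cbx2, a subunit that reads H3K27 methylation, rose from 8.66 ± 0.753 CPM to 18.5 ± 1.17 and 19.5 ± 0.681, and Bmi1, which was highest in mECC, was at 40.2 ± 2.23, 88.2 ± 2.04 and 56.9 ± 1.67 CPM. Cbx7 was at 13.7 ± 0.645 CPM in the normal libraries, 6.01 ± 1.21 in mECC and 12.3 ± 1.06 in HPmECC, and it was called lower in mECC but not in HPmECC. Pcgf2 rose from 17.1 ± 1.04 CPM to 31.7 ± 1.02 in mECC and 31.1 ± 1.17 in HPmECC, and Phc2 fell from 225 ± 6.91 CPM to 143 ± 3.65 and 127 ± 4.76. Between the lines, the histone-binding subunits Rbbp7 (360 ± 8.32 CPM in HPmECC against 249 ± 7.16 in mECC) and Rbbp5 of the MLL complex (46.5 ± 0.805 against 36.7 ± 1.13) were higher in HPmECC.

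Among genes that pattern the reproductive tract, 8 of 18 tested rose and 10 fell in mECC against normal (all genes 42.1% and 44.2%), and 6 rose and 11 fell in HPmECC (all genes 43.0% and 43.3%), with medians of -0.22 and -1.06 on the log2 scale. Between the lines 1 was higher and 16 were lower in HPmECC, beside 33.8% and 34.5% of all genes, with a median of -0.93. Wnt7a, the epithelial signal known for maintaining uterine Hoxa10 and Hoxa11, fell from 291 ± 2.76 CPM to 9.50 ± 0.727 in mECC and 0.0450 ± 0.0676 in HPmECC. Pax8, of the Müllerian epithelium, fell from 345 ± 11 CPM to 31.9 ± 1.40 and 1.75 ± 0.258. Wnt4 was highest in mECC, at 55.7 ± 0.968 CPM against 6.41 ± 0.844 in normal cells and 3.41 ± 0.725 in HPmECC.

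Msx1, a uterine homeobox gene outside the clusters, had 1592 counts over the normal libraries, 1 in mECC and 3 in HPmECC, ratios of 2196 (95% counting interval 394 to 86781) and 701 (239 to 3401). Wt1 had 2096 over the normal libraries, 0 counts in mECC and 9 in HPmECC, and was at least 964-fold lower in mECC. Trp63, a squamous and basal epithelial gene, rose from 0.143 ± 0.0516 CPM to 12 ± 1.44 and 6.99 ± 0.417. Outside the clusters, Cdx2, a ParaHox gene of the intestine, was the single tested gene of 13 flanking and ParaHox genes. It had no count in the normal libraries, 50 counts in mECC and 43 in HPmECC, at least 12.1-fold and at least 10.9-fold higher.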

How the data were processed

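RNA was sequenced from 12 libraries in 3 groups of 4. The submitters' processing notes name Trim Galore, STAR 2.6.1a, RSEM 1.3.1 and genome build GRCm38. For the annotation release and strand setting, nothing is given in the sources used here. Gene values deposited as counts are whole numbers, taken here as rounded expected counts since the notes name RSEM. The deposited TPM values, which the authors had scaled by transcript length, gave levels between genes. FPKM values were not used here. The values of 1 HoxA member are not reported here by name, though counts and sums include it. Of 55385 identifiers, 55144 had a symbol and a GENCODE M21 position on GRCm38. Library totals were 16332060 to 26873582 counts.

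The model was edgeR 4.0.16 (R 4.3.3) with the quasi-likelihood test, TMM factors, filterByExpr with a minimum count of 10, all 12 libraries in 1 fit, Benjamini-Hochberg adjustment over 15283 genes, threshold 0.05. The biological coefficient of variation was 4.27%. Standard errors were derived from the F statistic. A ± is an SD (n = 4), or an SE on log2 fold changes. A group at 0 counts was set to 3 counts over its 4 libraries for a bound. Intervals (exact, 95%) and floors cover counting error only. The script was tested on simulated data. Figures were drawn in Python 3.11.15 with matplotlib 3.10.9.

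Values per library were given for members at a mean of at least 5 CPM in a group and for those whose call differed between the 2 comparisons with normal cells, and, outside this rule, for Hoxb13. Of each pathway list, at most 3 called genes per comparison were named, those that changed most with 5 CPM or more; Hoxaas2, Hoxaas3, Hoxa11os, Hoxd3os1, Hoxb3os, Haglr, Hotair, Hottip, Evx1, Evx2, Rara, Rarb, Rarg, Cyp26b1, Cdx2, Pgr, Esr1 and the neighbours of the clusters were named outside this rule, after their values were seen. The members, lists and tests were chosen with earlier results of these data known. The alternatives tried were library totals, median-of-ratios factors, other filters, DESeq2 1.42.0, limma 3.58.1 on log2(TPM + 1) and log2(TPM + 0.1), fits of only the groups compared, a replicate block, and each library left out in turn.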

Additional observations from a re-analysis of the deposited data

Results flagged for a closer look

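In 4 of 67 combinations of a HOX gene and a group with at least 20 counts, 1 library stood apart from the other 3 by a gap larger than Dixon's 95% value for 4 samples. Chance alone marks about 1 group in 20. Hoxa10 was at 8.37 CPM in normal replicate 3, above 6.03 to 6.34 CPM in the others. Hoxd9 was at 6.50 CPM in normal replicate 1, above 5.46 to 5.61 CPM. Hoxd8 was at 6.27 CPM in mECC replicate 3, below 7.45 to 7.62 CPM. Hoxb9 was at 170.0 CPM in HPmECC replicate 3, above 159 to 161 CPM. Hoxa10 and Hoxd9 were higher in every normal library than in every line library. What set these libraries apart was not tested.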

How the results depend on the processing

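Of 1459 values of the 30 tested members under the alternatives (90 results in 3 comparisons), 1439 kept their direction and their side of the threshold. The other 20 comprised 5 reversals, all of members that were not called, 11 that lost the call and 4 that gained it; the cause was not tested. The reversals, in HPmECC against mECC, were Hoxb9 at -0.02 with library totals and -0.04 with both TPM fits, Hoxd4 (-1.43 to 0.01 over libraries left out, the latter without mECC replicate 4) and Hoxd10 (-1.46 to 2.22, the former without HPmECC replicate 2). Against normal, Hoxa7, Hoxb4, Hoxb6 and Hoxd8 in mECC and Hoxb6 in HPmECC crossed the threshold with library totals. Hoxa3 lost the call between the lines on log2(TPM + 0.1), at a log2 fold change of -0.80 (adjusted p = 0.0783) in place of -0.48. With at least 10 CPM in 4 libraries, only 10 members were left for testing. Of these, 8 were higher and 1 lower in mECC, and 8 were higher and 2 lower in HPmECC, against normal. The main fit gave 12 higher and 16 lower in mECC, and 12 higher and 18 lower in HPmECC. Under this filter 0 were higher and 8 lower in HPmECC against mECC.

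Without each library in turn, 12 members were higher and 16 lower in mECC and 12 higher and 18 lower in HPmECC against normal; 2 to 3 were higher and 15 lower in HPmECC against mECC. Over all genes, 6373 to 6434 were higher and 6662 to 6799 lower in mECC, 6512 to 6561 and 6564 to 6682 in HPmECC, and 5013 to 5189 and 5101 to 5140 between the lines. Deviations of libraries with the same replicate number were weakly correlated at most (0 of 12 correlations above 0.1, -0.0273 to 0.08). The main fit used no pairing. Low correlations cannot show whether same-numbered libraries were prepared together, and the labels do not say. With the replicate number as a block, 12 members were higher and 16 lower in mECC, 12 and 18 in HPmECC, and 3 and 15 between the lines, and no member's call changed. Depth limits what can be said of members under about 20 summed counts, such as Hoxa13, Hoxd1 and Hoxd13.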
